A study of Arabidopsis thaliana with 10 samples.

Results

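In whole shoots of Arabidopsis thaliana, 101 of 22746 probe sets on the ATH1 array had a lower signal at 3 hr of dexamethasone (DEX) than at 0 hr, and a signal close to that of 0 hr at 6, 12 and 24 hr. A probe set is a group of short probes that together read 1 transcript or a few closely related ones, and the 101 made up 0.444% of all probe sets. They were chosen on E, the log2 of the signal plus 16, averaged within each time. The mean of E over the 10 arrays had to be at least 6, the difference of 3 hr minus 0 hr at most -0.6, and the differences at 6, 12 and 24 hr each between -0.3 and 0.3. Both 3 hr arrays had to lie below both 0 hr arrays. Since this choice used all 10 arrays and every comparison with 0 hr, the differences of the chosen probe sets are given below as a description, with no test. The probe annotation named 1 gene for 56 of the 101 and 2 genes for each of 2, and it did not list the other 43.

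The plants were shr-2 mutants, which lack a working SHORT-ROOT (SHR) gene, with pSHR:SHR-GR as a transgene. The SHR promoter drives a fusion of SHR with the glucocorticoid receptor, so the protein that DEX activates is made only in the cells where that promoter is active. A control group, labelled 0 hr, was set beside groups treated with 10 µM DEX for 3, 6, 12 or 24 hr. Each group had 2 arrays, biological replicates per the series design. Seedlings received DEX 10 days after germination (DAG), except that the 24 hr group received it at 9 DAG. The controls carried the same transgene and mutation. The series analysed here has no mock-treated arrays at the DEX times, so DEX, handling and time of day cannot be told apart in any comparison with 0 hr.

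SHR is a GRAS-family transcription factor best known for the radial patterning of the root and for its part in the bundle sheath and growth of the leaf. The receptor domain holds the fusion in the cytoplasm, and DEX lets it enter the nucleus. Among the 56 named genes, 4 were assigned here to the cell wall and 6 to redox enzymes. Roles were assigned to the named genes only. The share of each role among all genes on the array was not counted, so nothing is read from such numbers. Pectate lyases and endoglucanases cut wall polymers, trichome birefringence-like (TBL) proteins belong to a family that acetylates them, and class III peroxidases oxidize wall components and make or use hydrogen peroxide. Type-A response regulators are small proteins that cytokinin induces and that dampen cytokinin signalling.

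Median signals per array were 184 and 181 at 3 hr, against 189.9 and 190.5 at 0 hr, and 188 to 192 at the later times. The ratio of the 3' to the 5' probe set of GAPDH, a sign of RNA integrity, was 2.06 and 2.26 at 3 hr, against 2.13 and 2.28 at 0 hr. The same ratio for actin was much higher, at 23.4 and 24.8 at 3 hr, against 24.7 and 21.5 at 0 hr. It ran from 12.7 on 24 hr replicate 2 to 28.6 on 6 hr replicate 1. Of 31 marker genes listed for tissues of the shoot and root, 6 had a named probe set. The mesophyll marker RCA, rubisco activase, had a mean signal of 24161 at 3 hr and 24234 at 0 hr, and the guard cell marker FAMA had 351 and 267. The meristem marker CLV3 was near background at all times, with a highest signal of 17.6. In the RNA of a whole shoot, fewer cells of a type and less RNA per cell cannot be told apart.

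The differences at 3 hr were modest in size. In E they ran from -1.30 to -0.60 with a median of -0.68, which corresponds to a level lower by 1.52-fold to 2.46-fold, with a median of 1.60-fold. Of the 101 probe sets, 10 had a difference of -1 or below, 28 of -0.8 or below and 47 of -0.7 or below. The median of their differences from the 0 hr mean was -0.73 on 3 hr replicate 1 and -0.71 on 3 hr replicate 2. It lay between -0.11 and 0.04 on the 6 later arrays. In 98 of the 101 both 3 hr arrays were below all 8 other arrays. The rule held the later means near 0 hr, so it largely set this count in advance. The share over all probe sets was not counted, so nothing is read from it.

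**Figure D1:**
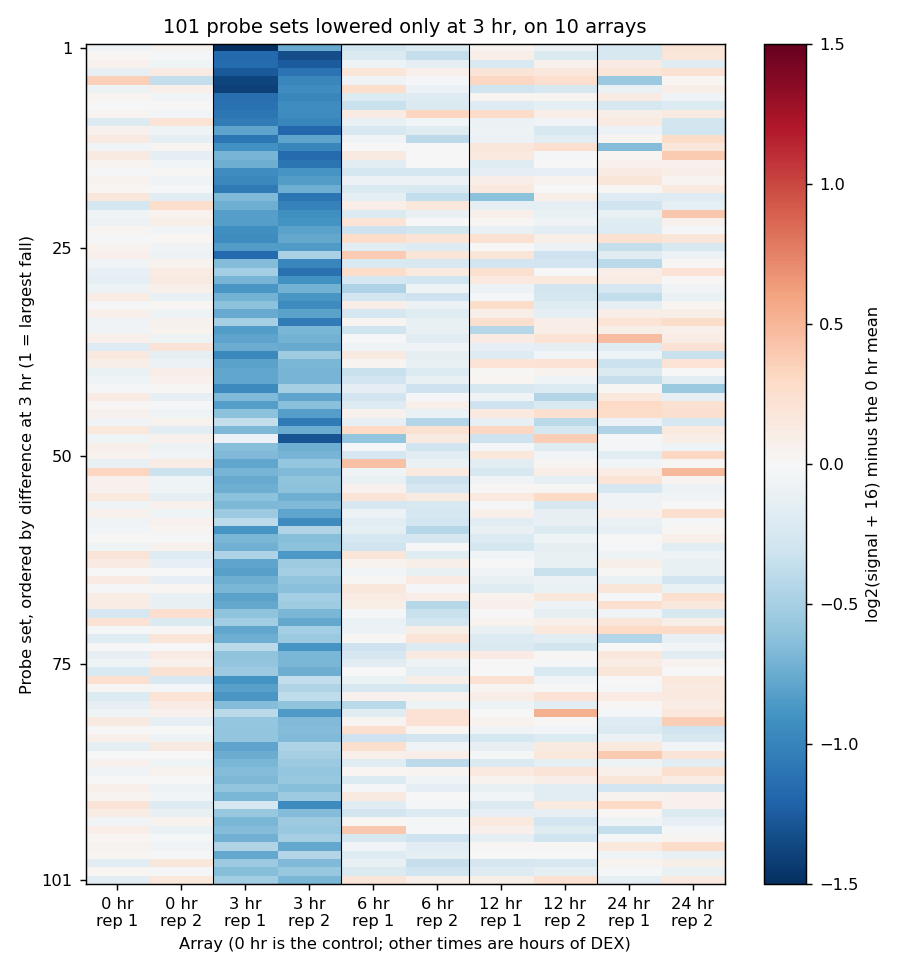
Each row is 1 of the 101 probe sets, ordered by the difference at 3 hr, and each column is 1 of the 10 arrays, with colour showing log2(signal + 16) minus the mean of the 2 arrays at 0 hr. Both 3 hr columns are blue in nearly every row, with medians of -0.73 and -0.71, and the 6 later columns are pale, with medians from -0.11 to 0.04.

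The 101 probe sets covered a wide range of levels. Mean signals ran from 23.7 to 5097 at 3 hr, with a median of 156, and from 55.2 to 7863 at 0 hr, with a median of 269. The median at 0 hr of all probe sets that met the demand on the mean was 384. A signal under 43.4, the 30th percentile of all probe sets, is called near background here, and 11 of the 101 were below it at 3 hr and 0 at 0 hr. The 2 arrays of 3 hr differed by a median of 0.16 in E over the 101, against 0.14 for the 2 arrays of 0 hr. In 53 of the 101 both 3 hr arrays were at least 0.6 below the 0 hr mean. In 2 others of the 101, 1 array was less than 0.3 below that mean, so that the other array carried most of the difference.

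By limma, 78 of the 101 were called lower than at 0 hr and 0 higher at 3 hr, where 4.31% of all probe sets were called lower, 3.91% higher and 8.22% in either direction. Both 3 hr arrays were below both 0 hr arrays in all 101, as the rule asked, and in 27.3% of all probe sets. The choice used this comparison, so nothing is read from these counts. At 6 hr 2 of the 101 were called lower and 0 higher by limma, against 4.19% and 5.17% of all, or 9.36% together. At 12 hr limma called 0 of the 101, against 0.33% of all lower and 1.27% higher, or 1.6% together. At 24 hr it also called 0, against 0.242% lower and 0.717% higher, or 0.958% together. The choice limited these later differences too, so nothing is read from these counts either.

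The later differences, which the rule held between -0.3 and 0.3, are likewise given as a description. Below 0 were 69 of the 101 at 6 hr, 63 at 12 hr and 51 at 24 hr, with medians of -0.09, -0.06 and 0.00, against -0.05, -0.03 and -0.03 over all probe sets. At 6 hr both arrays were below both controls in 40 and above them in 7, where 31.8% and 21.2% of all probe sets were. The counts were 26 below and 13 above at 12 hr, against 26.4% and 19.3% of all. At 24 hr they were 14 and 18, against 24.0% and 18.6%.

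The transcription and signalling genes among the 56 named ones included a regulator of cytokinin response. RR16, a type-A response regulator also known as ARR16, had signals of 244 and 253 at 3 hr, against 476 and 485 at 0 hr. It had 396 and 397 at 6 hr, 436 and 439 at 12 hr and 527 and 517 at 24 hr. The replicates were close to each other at each time. The 3 hr arrays were the lowest, the 6 and 12 hr arrays were still below both controls, and the 24 hr arrays were above them. The difference in E was -0.91 at 3 hr and -0.27 at 6 hr, just within the limit set for 6 hr. The list for cytokinin held 5 other measured genes, the response regulators ARR15, RR18, RR19, RR22 and RR23, and 4 of them, all but ARR15, had mean signals near background at every time. Of these 5, 0 were called by limma at 3, 6, 12 or 24 hr, and 0 had an unadjusted p below 0.05. ARR15 was at -0.83 at 3 hr (SE 0.45, limma adjusted p = 0.327), -0.43 at 6 hr and 0.13 at 24 hr. Its 3 hr arrays were far apart, at 57.8 and 6.52, against 54.0 and 58.7 at 0 hr, so whether it fell like RR16 is not settled. Without 3 hr replicate 1, 1 of the 5 was called at 3 hr.

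Kinases and leucine-rich repeat proteins, many of which sense signals at the cell surface, made up 6 of the named genes as assigned here. Their share among all genes on the array was not counted, so nothing is read from this number. AT2G28940, a protein kinase, had signals of 105 and 78.3 at 3 hr, against 191 and 179.5 at 0 hr, and 161 to 194 on the 6 later arrays. AT1G70250, a receptor-like kinase, had 27.6 and 53.6 at 3 hr, against 87.0 and 76.6 at 0 hr, and 62.8 to 111 later. Its 3 hr arrays were far apart, with 1 of them near background, and a second probe set of this gene, dimmer and below the demand on the mean, had a difference of -0.51 at 3 hr and -0.16 at 6 hr. AT1G11330, an S-locus lectin kinase, had 230.4 and 205 at 3 hr, against 300.0 and 379.9 at 0 hr. AT1G67470, a kinase of the family of ZED1, had 178 and 163 at 3 hr, against 237 and 302 at 0 hr. Both lay just past the limit, each with a difference of -0.60. The leucine-rich repeat genes AT1G68780 and AT2G15042 had differences of -0.61 and -0.62.

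Several lowered genes act on the cell wall. AT3G07010, a pectate lyase, had signals of 397 and 384 at 3 hr, against 718 and 643 at 0 hr. It had 569.7 and 597 at 6 hr, 722 and 617 at 12 hr and 729 and 720.5 by 24 hr, so the 6 hr arrays were still below both controls and the 24 hr arrays were above them. GH9B13, an endoglucanase of the glycosyl hydrolase family, had 261 and 285 at 3 hr, against 466 and 426 at 0 hr, and 372 to 466 on the later arrays. TBL38 had 117 and 145 at 3 hr, against 237 and 196 at 0 hr, and 198 to 230.4 later. In all 3 the 3 hr arrays were the lowest of the 10, with differences of -0.77, -0.68 and -0.66. AT4G34600, which encodes the peptide CIF2 known for the sealing of the Casparian strip in the root, had 49.5 and 40.5 at 3 hr, against 80.6 and 100.1 at 0 hr, and 70.3 to 103 later, with the 6 hr arrays below both controls.

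**Figure D2:**
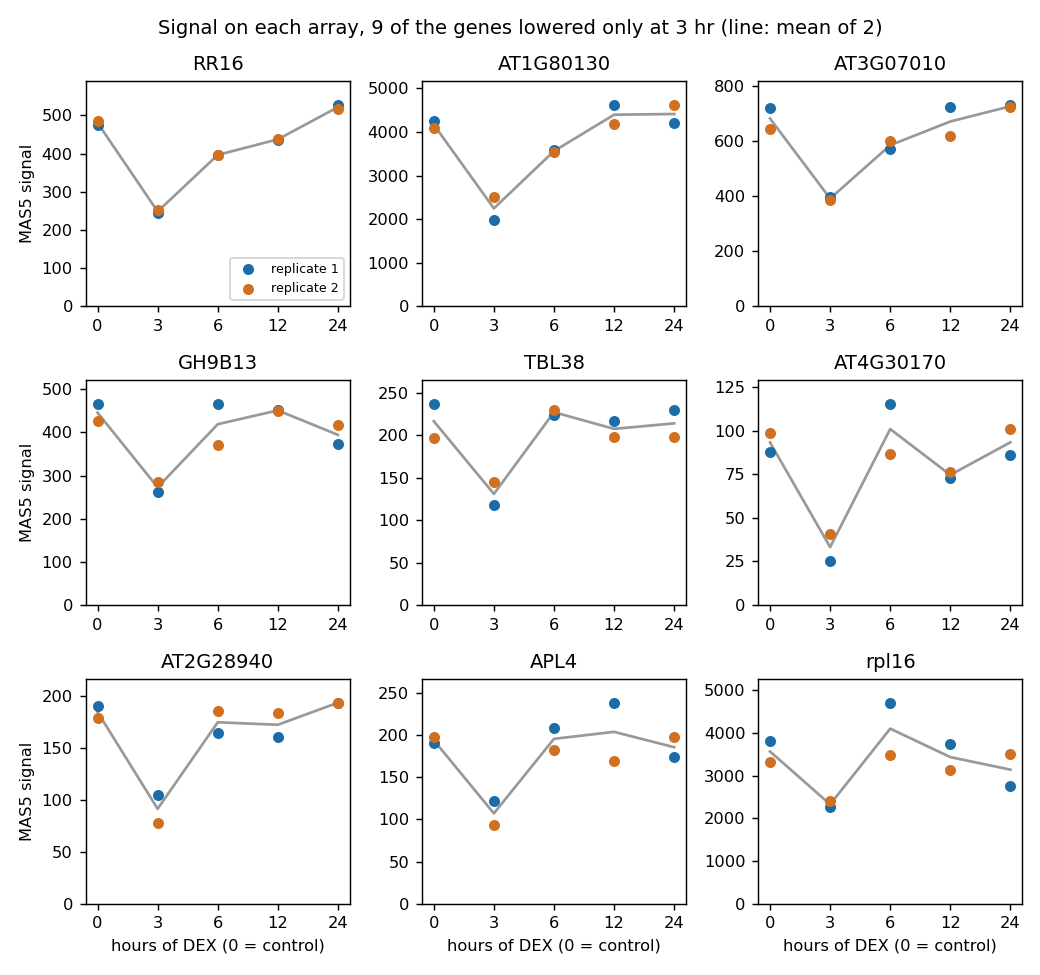
MAS5 signal on a linear axis that starts at 0, against hours of DEX, for 9 of the lowered genes, with a point for each of the 2 arrays of a time and a line through their means. In each panel the 3 hr points are the lowest of the 10, for example 244 and 253 for RR16 against 476 and 485 at 0 hr, and the later points return to near the 0 hr level.

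Relatives of these wall genes that were not among the 101 show how the families behaved at 3 hr. Among 22 further pectate lyase genes with a probe set, limma called 6 lower and 0 higher at 3 hr and 16 did not pass, where 4.31% of all probe sets were called lower. Their median log2 fold change was -0.16, against -0.03 over all probe sets, and -0.08 with an offset of 64, against -0.02 over all. AT3G27400 fell to 129 ± 15.8 at 3 hr, against 389 ± 5.40 at 0 hr (signal, SD, n = 2 arrays each), a log2 fold change of -1.48 (SE 0.13, limma adjusted p = 5.69e-05). AT4G24780 fell by 0.92 (SE 0.09, limma adjusted p = 0.000132) and AT1G67750 by 0.81 (SE 0.09, limma adjusted p = 0.000272) on the log2 scale. Later, at 6 hr, 6 of the 22 were called lower, where 4.19% of all were, with AT3G27400 at -0.88, AT4G24780 at -0.63 and AT1G67750 at -0.55. These 3 were still called at 6 hr, when AT3G07010 stood at -0.21. At 12 and 24 hr 0 of the 22 passed by limma, where 1.6% and 0.958% of all probe sets did. At an unadjusted p below 0.05, 5 were lower and 0 higher at 12 hr, and 4 lower and 1 higher at 24 hr. The count of 6 at 3 hr was 5 to 7 in the fits that left out 1 array.

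TBL genes went both ways. In 22 further genes of the family limma called 4 lower and 2 higher at 3 hr, and 16 did not pass, against 4.31% lower and 3.91% higher over all probe sets. The median log2 fold change was -0.23. TBL36 fell to 166 ± 28.1 at 3 hr, against 506 ± 20.2 at 0 hr (signal, SD, n = 2 arrays each), a log2 fold change of -1.53 (SE 0.15, limma adjusted p = 0.000144). The other falls called were TBL45, TBL32 and TBL39, at -0.59, -0.55 and -0.50 at 3 hr. At 6 hr these stood at -0.17, 0.08 and -0.40 and were not called. TBL26 rose to 2536 ± 197 at 3 hr, against 1011 ± 33.1 at 0 hr (SD, n = 2 each), a log2 fold change of 1.31 (SE 0.13, limma adjusted p = 0.000107), and TBL37 rose by 0.78 (SE 0.11, limma adjusted p = 0.00118). The wider list of pectin and wall acetylation genes, with 29 other members, held the same 4 falls and 2 rises and no further call at 3 hr. At 6 hr 2 of the 22 TBL genes were called lower and 2 higher, against 4.19% and 5.17% of all. At 12 hr limma called 0, with 6 lower and 0 higher at an unadjusted p below 0.05, against 0.33% and 1.27% of all called. At 24 hr 1 was called lower and 0 higher, against 0.242% and 0.717%. Without 1 array the count of 6 TBL calls at 3 hr was 4 to 6. Of 14 other endoglucanase genes 0 fell and 1 rose at 3 hr by limma, with 3 lower and 1 higher at an unadjusted p below 0.05, against 4.31% and 3.91% of all called. Later 2 of the 14 were called lower at 6 hr, 1 at 12 hr and 1 at 24 hr, and 0 higher at each of these times. Of all probe sets 4.19%, 0.33% and 0.242% were called lower at these times. The 1 that rose, GH9B16, had signals of 34.3 ± 0.217 at 3 hr and 6.03 ± 3.51 at 0 hr (SD, n = 2 each), near background in both groups. GH9B16 lost its call with the first control array or the second 3 hr array left out.

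Peroxidases and other oxidizing enzymes made up 6 of the named genes as assigned here. AT4G30170, a class III peroxidase, had signals of 25.4 and 41.1 at 3 hr, against 87.7 and 99.0 at 0 hr. It had 115 and 86.6 at 6 hr, 72.8 and 76.6 at 12 hr and 85.9 and 101 at 24 hr. Both 3 hr arrays were near background, and its difference of -1.17 was the second lowest of the 56 named probe sets. The peroxidase AT4G36430 had 133 and 125 at 3 hr, against 192 and 229.6 at 0 hr, and AT2G22420 had 107 and 139 at 3 hr, against 199 and 189 at 0 hr. Their differences were -0.64 and -0.60, with the groups apart in both, as the rule asked.

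AT1G03400, an oxygenase that depends on 2-oxoglutarate and iron, had signals of 160.0 and 152 at 3 hr, against 278 and 317 at 0 hr, and 261 to 344 on the later arrays. AT3G43670, a copper amine oxidase that makes hydrogen peroxide, had 34.7 and 52.4 at 3 hr, against 93.3 and 73.4 at 0 hr. The glutaredoxin AT2G30540 had 648 and 835 at 3 hr, against 1166 and 1131 at 0 hr. The 3 hr arrays lay below all other arrays in these 3 genes, as in 98 of the 101.

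Among 52 further class III peroxidase genes limma called 5 lower and 2 higher at 3 hr, and 45 did not pass, where 4.31% of all probe sets were called lower and 3.91% higher. Their median log2 fold change was -0.20 at 3 hr and -0.26 at 6 hr, against -0.03 and -0.05 over all probe sets. With an offset of 64 the median at 3 hr was -0.10, against -0.02 over all. AT5G58390 fell to 412 ± 0.963 at 3 hr, against 670.0 ± 80.5 at 0 hr (signal, SD, n = 2 arrays each), a log2 fold change of -0.68 (SE 0.11, limma adjusted p = 0.00318). AT4G26010 stood at -1.06 (SE 0.26, limma adjusted p = 0.0293), near background in both groups at 9.66 at 3 hr and 36.5 at 0 hr. AT2G41480 rose by 0.98 (SE 0.20, limma adjusted p = 0.0104). At 6 hr limma called 2 of the 52 lower and 2 higher, against 4.19% and 5.17% of all. At 12 hr it called 0 lower and 1 higher, against 0.33% and 1.27%. At 24 hr it called 0, against 0.242% and 0.717%, with 4 lower and 1 higher at an unadjusted p below 0.05. When each of the 10 arrays was left out in turn, 3 of these fits ended the call of AT4G26010 and 3 that of AT2G41480. The total of 7 calls went down to 3 with the first control array left out, 2 with the second, and 3 with either 3 hr array left out.

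AT4G30170 and AT4G26010 are peroxidase genes known mainly from the root, and 3 of 7 listed root markers were measured. EXPA18, a root hair expansin, had a mean signal of 59.9 at 3 hr and 83.9 at 0 hr. Its later means were 20.4 (6 hr), 50.5 (12 hr) and 69.3 (24 hr). EXPA7 stood at 6.88 at 3 hr and 13.3 at 0 hr, and GH9C1 at 12.8 at 3 hr and 24.5 at 0 hr. Their log2 fold changes at 3 hr were -0.41, -0.36 and -0.56, with limma adjusted p = 0.45, 0.517 and 0.346. EXPA18 and EXPA7 had their lowest means at 6 hr, at 20.4 and 4.01, when AT4G30170 had signals of 115 and 86.6. GH9C1 had its lowest mean at 3 hr, as AT4G30170 did, with 16.2 at 6 hr, 19.5 at 12 hr and 22.0 at 24 hr. EXPA7 and GH9C1 were near background at every time. The part of root RNA in the values of AT4G30170 was not tested.

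**Figure D3:**
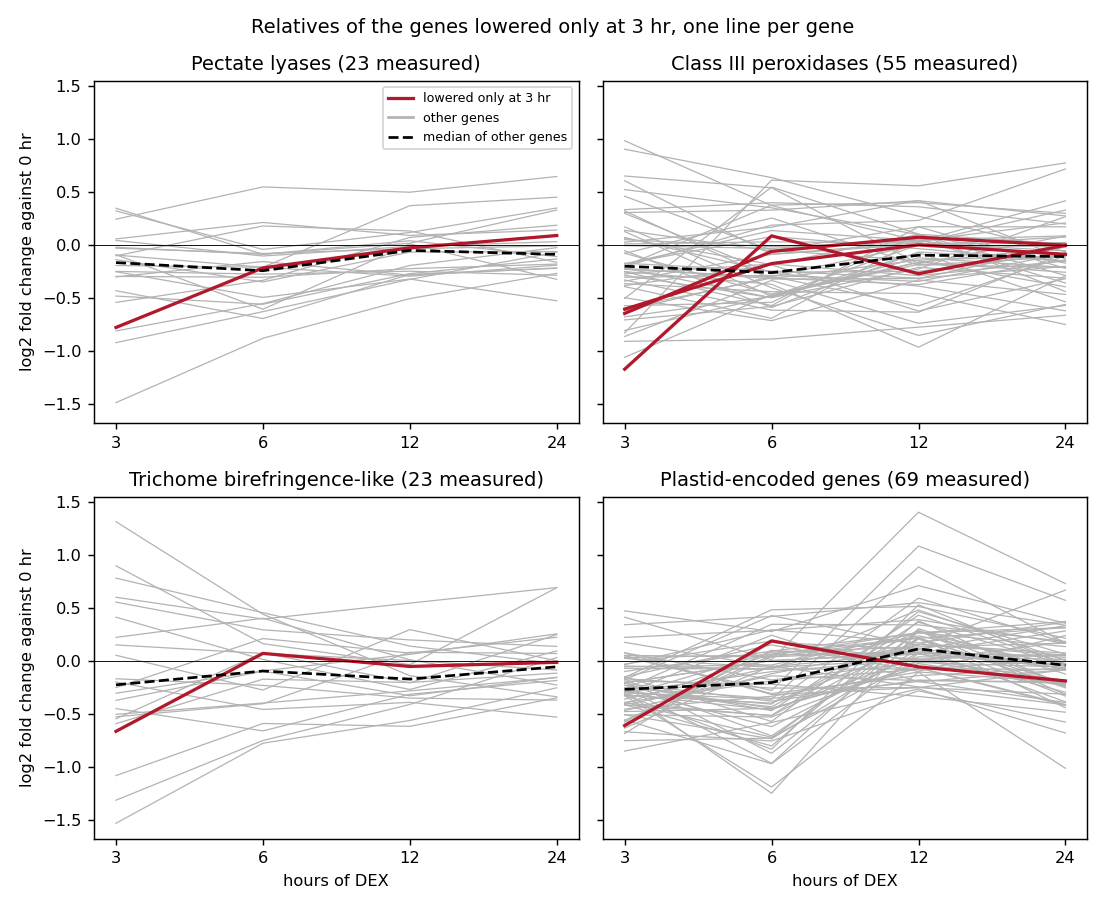
Log2 fold change against 0 hr at 3, 6, 12 and 24 hr for every measured gene of 4 families, with a red line for each gene lowered only at 3 hr, a grey line for each other gene and a dashed black line for the median of the other genes. At 3 hr the dashed line is at -0.16 for pectate lyases, -0.20 for class III peroxidases, -0.23 for TBL genes and -0.27 for plastid-encoded genes, and single genes lie on both sides of 0 in each family.

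The named genes included 3 assigned here to carbohydrate supply and transport. The list of sugar and water transport, with 19 measured genes, held 0 of the 101. Of these 19, limma called 1 higher and 2 lower at 3 hr, against 3.91% and 4.31% of all probe sets. Their median log2 fold change was -0.004. APL4, a large subunit of ADP-glucose pyrophosphorylase, the enzyme that commits glucose to starch, had signals of 122 and 92.9 at 3 hr, against 190.3 and 198 at 0 hr. The later arrays, at 169 to 239, overlapped the controls. Of 2 other measured starch synthesis genes, APL3, another large subunit, fell by 0.52 (SE 0.13, limma adjusted p = 0.0296), a call that ended in the 4 fits that left out a 0 hr or a 3 hr array. AT4G04750, a sugar transporter of the major facilitator family, had 564 and 446 at 3 hr, against 859 and 929.9 at 0 hr. The later arrays, at 673 to 904, were below both controls in 5 of 6 cases, with a difference of -0.29 at 12 hr. AT1G26130, a P4-type ATPase that moves lipids across membranes, had 116 and 105 at 3 hr, against 211 and 175 at 0 hr.

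Proteins that fold, mark or cut other proteins made up 4 of the named genes as assigned here. AT3G13672, listed under the synonym SINA2 and related to the SINA ubiquitin ligases first known in flies, had signals of 108 and 78.1 at 3 hr, against 207 and 188 at 0 hr. All 6 later arrays, at 157 to 187, were below both controls. AT1G73655, a peptidyl-prolyl isomerase of the FKBP type, had 1871 and 2076 at 3 hr, against 3295 and 3031 at 0 hr. The aspartyl protease AT1G62290 had 305 and 182 at 3 hr, against 381 and 413 at 0 hr, with 3 hr arrays that lay far apart and a lowest later array of 288, below 1 of them. The F-box gene AT3G19470, whose family picks substrates for ubiquitination, had 83.5 and 80.4 at 3 hr, against 143 and 126 at 0 hr.

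The plastid genome contributed 1 of the 101. Plastid-encoded rpl16, a protein of the large subunit of the plastid ribosome, had signals of 2257 and 2402 at 3 hr, against 3825 and 3316 at 0 hr. The pairs were 4713 and 3497 at 6 hr, 3746 and 3129 at 12 hr and 2767 and 3521 at 24 hr, so that 1 array of 6 hr was above both controls and 1 array each of 12 and 24 hr below them. Among 68 further plastid-encoded genes limma called 17 lower and 0 higher at 3 hr, and 51 did not pass, against 4.31% and 3.91% of all probe sets, with 32 lower and 0 higher at an unadjusted p below 0.05. At 6 hr 22 fell and 1 rose, against 4.19% and 5.17% of all. At 12 hr 0 fell and 3 rose, with 5 lower and 19 higher at an unadjusted p below 0.05, against 0.33% and 1.27% of all called. At 24 hr 2 fell and 1 rose, against 0.242% and 0.717%. The cytochrome f gene petA was at -0.85 at 3 hr and -0.58 at 6 hr, and psaC of photosystem I at -0.75 and -0.73. Another gene of photosystem I, psaJ, was at -0.69 (SE 0.09, limma adjusted p = 0.00094) at 3 hr and 0.17 at 6 hr. It missed the rule only through a difference of 0.33 at 24 hr. Of the 17, petA, psaC, psaI, psbK, psbC, cemA, accD and psbB were also called lower at 6 hr. The rest, psaJ, rpl33, rps18, rps16, rpl36, psbL, rpoC1, atpH and ndhK, were not called at 6 hr. The ribosomal genes among the rest, rpl33, rps18, rps16 and rpl36, were at -0.58, -0.595, -0.56 and -0.39 at 3 hr. At 6 hr they were at 0.10, 0.04, 0.05 and -0.19. The count of 17 went down to 4 with the first control array left out, 10 with the second and 5 with the second 3 hr array left out, and psaC was not called in 3 of the fits that left out an array. The control probe set for 25S rRNA had signals of 5850 and 4567 at 3 hr, against 5959 and 5835 at 0 hr.

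The largest differences included genes for which no role is given here. AT3G01960 had the largest difference of the named genes, with signals of 83.0 and 72.6 at 3 hr, against 212 and 201 at 0 hr. Its difference was -1.25 at 3 hr and -0.29 at 6 hr. AT1G80130, a bright tetratricopeptide repeat gene, had 1989 and 2505 at 3 hr, against 4245 and 4089 at 0 hr. It had 3578 and 3545 at 6 hr, 4616 and 4177 at 12 hr and 4215 and 4611 at 24 hr, so that it was still below both controls at 6 hr and overlapped them later.

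AT5G66490 had signals of 250.2 and 283 at 3 hr, against 483 and 501 at 0 hr, and all 6 later arrays, at 526 to 599, were above both controls. AT3G08780 had 247 and 156 at 3 hr, against 328 and 389 at 0 hr, and 355 to 437 later, with 4 of the 6 later arrays above both controls. AT4G39320, AT5G28630, AT3G28590, AT2G47720, AT2G47010, AT3G53100 (a GDSL lipase), AT2G36430, AT2G36885 and AT5G14690 had differences of -1.02, -0.94, -0.88, -0.87, -0.86, -0.79, -0.79, -0.75 and -0.72 at 3 hr. Of these 9 genes, AT4G39320 and AT2G47720 had mean signals near background at 3 hr, at 26.1 and 37.5. The probe set with the largest difference of all had no listed gene and signals of 9.38 and 37.9 at 3 hr, against 71.4 and 78.5 at 0 hr.

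Among genes of smaller difference, AT4G19820, of the chitinase family, had signals of 67.0 and 67.4 at 3 hr, against 110.0 and 122.8 at 0 hr. AT2G42900, a basic secretory protein, had 150.2 and 118 at 3 hr, against 220.0 and 203 at 0 hr. AT1G50590, a pirin-like protein, had 71.3 and 88.1 at 3 hr, against 132 and 129 at 0 hr, and 177 and 152 at 24 hr, with a difference of 0.30 at the last time. Each was lower on both 3 hr arrays than on both controls, as the rule asked. The remaining 8 named genes had differences between -0.68 and -0.61 at 3 hr.

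The chosen probe sets were spread over the genome. Of the 56 with 1 gene, 55 had an entry in RefSeq, all 55 of them protein-coding. They lay on chromosome 1 (17 genes), 2 (12), 3 (10), 4 (8) and 5 (7), with 1 in the plastid. Chromosome 5 held 12.5% of the 56 and 22.3% of all probe sets with 1 gene, and chromosome 1 held 30.4% and 25.5%. Of 49 measured genes that directly flank a lowered gene on its chromosome, 0 were among the 101 and 4 were called lower at 3 hr by limma, where 4.31% of all were, and their median difference was -0.12. Probe sets that can bind several transcripts made up 6.93% of the 101 and 4.66% of all.

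Some probe sets lay close to the limits of the choice. Just inside the limit of -0.6 at 3 hr were AT1G11330 at -0.602, AT1G67470 at -0.603 and AT2G22420 at -0.603, and just outside were AT1G53710, AT1G01640 and the plastid gene rps18, at -0.597, -0.597 and -0.595. At 6 hr AT2G36430, AT2G47010 and AT5G22875 were just inside, at a size of 0.30, 0.29 and 0.29, and AT1G67920, AT2G40530 and AT5G02420 just outside, at 0.31 each. At 12 hr AT4G04750, AT5G14690 and AT4G30170 were inside at 0.29, 0.27 and 0.27, and SCPL27, DFR and AT2G15830 outside at 0.31 each. DFR makes the precursors of anthocyanins. At 24 hr AT1G50590, AT3G19470 and AT5G14690 were inside at 0.30, 0.28 and 0.26, and psaJ, AT1G16260 and AT5G07820 outside at 0.33, 0.34 and 0.34.

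For the demand on the mean, AT3G51110, AT5G45310 and AT4G39320 were just inside at 6.08, 6.15 and 6.16. YUC6, a gene of auxin synthesis, AT5G59490 and AT1G27040 were just outside at 5.65, 5.62 and 5.49. Among the probe sets with 1 named gene, the narrowest gaps in E between the lowest 0 hr and the highest 3 hr array were those of AT5G46230 at 0.13, AT1G78110 at 0.18 and AT2G33490 at 0.27, and 0 named genes failed on that demand alone. Over all 101 the narrowest gap was 0.02, in a probe set with no listed gene. In all, 117 probe sets missed the rule through the limit at 6 hr alone, 21 through that at 12 hr and 27 through that at 24 hr.

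**Figure D4:**
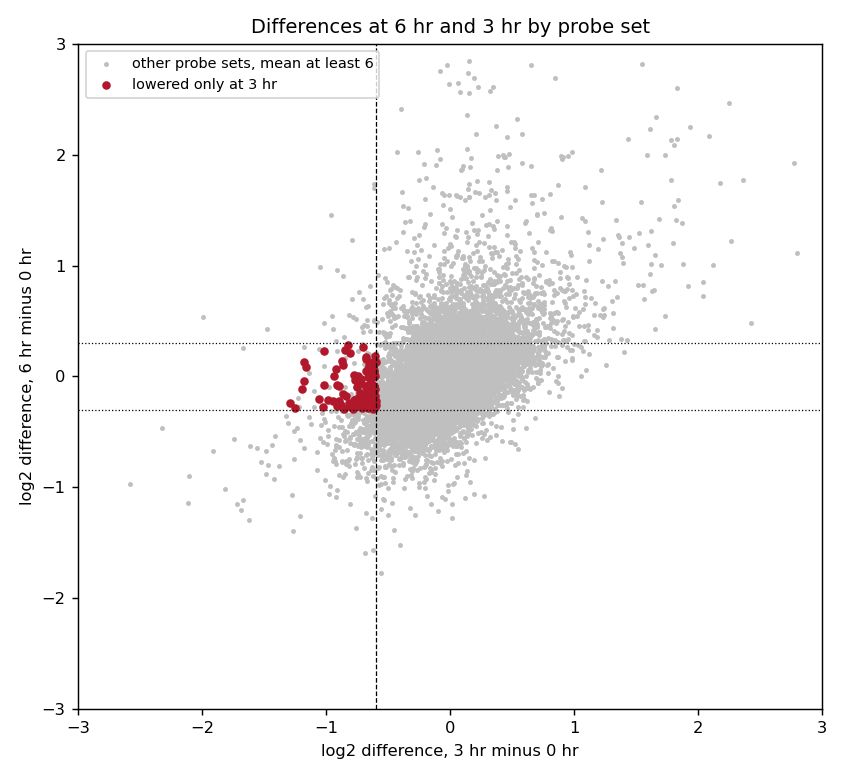
Difference of 6 hr minus 0 hr against difference of 3 hr minus 0 hr, both in log2(signal + 16), for the 15662 probe sets with a mean of at least 6, except 18 outside the plotted range. The 101 chosen ones, in red, fill the area left of the dashed line at -0.6 and between the dotted lines at -0.3 and 0.3, and they border on many grey points below that area that were still lower at 6 hr.

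A return to the 0 hr level by 6 hr was the less common course among the probe sets that were lower at 3 hr. In all, 433 probe sets met the demands on the mean, the size of the fall and the separation of the arrays at 3 hr. The 101 were 23.3% of them, and their median difference at 3 hr was -0.68, against -0.75 for the other 332. At 6 hr 157 of the 433 (36.3%) were within 0.3 of 0 hr, 138 were 0.3 to 0.6 lower, 107 at least 0.6 lower and 31 more than 0.3 higher. At 12 hr 277 were within 0.3 of 0 hr, and at 24 hr 307 (70.9%) were, while 17 were still at least 0.6 lower at 24 hr. These counts rest on the same comparisons as the choice and are a description.

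**Figure D5:**
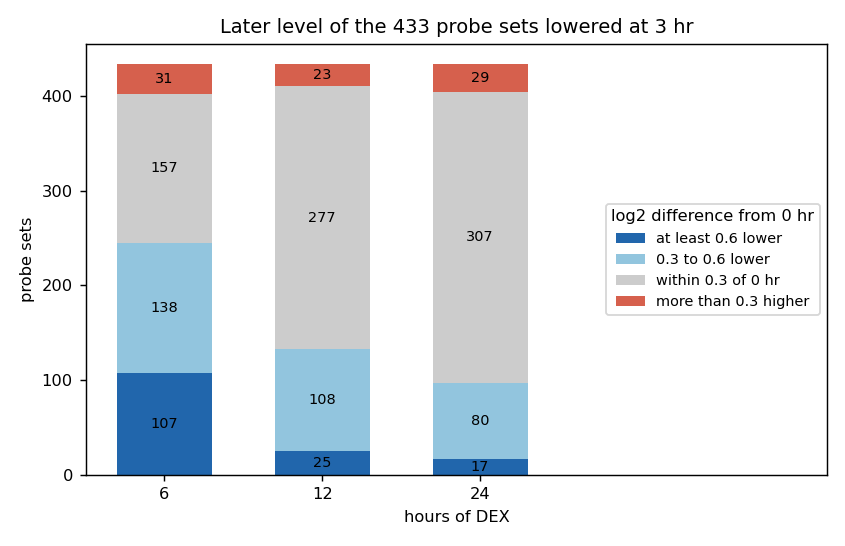
Stacked bars of the number of probe sets, out of the 433 that were lower at 3 hr, in 4 classes of log2 difference from 0 hr at 6, 12 and 24 hr. The class within 0.3 of 0 hr holds 157 at 6 hr, 277 at 12 hr and 307 at 24 hr, and the class at least 0.6 lower holds 107, 25 and 17.

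The same rule was turned to other times and to rises. By it 78 were raised only at 3 hr, 63 lowered only at 6 hr and 86 raised only at 6 hr. At 12 hr it found 5 lowered and 3 raised, and at 24 hr 15 lowered and 3 raised. The order of these counts depended on the scaling. With the arrays scaled to a common median, an alternative for the other sets chosen after seeing the data, 66 were lowered and 114 raised only at 3 hr, and 78 lowered and 77 raised only at 6 hr. The differences share the 0 hr arrays, so these sets are not independent of each other.

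Which probe sets met the rule depended on the offset, the scaling and single arrays. With the arrays scaled to a common median signal 66 met it, all of them among the 101, and 78 did after quantile normalization, 71 of them among the 101. Without 3 hr replicate 1 the rule found 161 probe sets, 75 of them among the 101. Of the 101, 28 met the rule under all 4 other offsets and scalings, 17 in all 10 repeats without 1 array, and 9 in both. The named genes among these 9 were AT2G28940, AT1G80130, AT1G03400, AT5G66490, AT3G07010 and AT1G63980, the last a G-patch protein with signals of 1008 and 1044 at 3 hr, against 1654 and 1621 at 0 hr.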

How the data were processed

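RNA from whole shoots was measured on 10 ATH1 arrays, 2 for each of 5 times. The deposited values are signal intensities on a linear scale, for which the submitters' processing notes name the MAS5 method and Affymetrix Expression Console 1.1. They were used as E = log2(signal + 16) with no further scaling, after 64 control probe sets were set aside. The number of arrays limits the precision, and a 2 against 2 exact permutation test cannot give a p below 0.33.

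One limma 3.58.1 fit (R 4.3.3, intensity trend) across 22746 probe sets and all 5 groups gave each difference from 0 hr, with 5 residual degrees of freedom. A call is a Benjamini-Hochberg adjusted p below 0.05. The fit was tested on simulated falls that were larger than most of those of the chosen probe sets, so that test does not cover falls of their size.

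The 101 probe sets and all gene lists were chosen with earlier results of these data known. The lists of peroxidases, pectate lyases, starch synthesis, TBL and endoglucanase genes were assembled after the 101 were seen. Of 27 other lists 4 held one of the 101, and the list of cytosolic ribosomal genes did so only through the plastid gene rpl16 and is not described. Those of receptor kinases (15 genes), redox enzymes (17) and expansins with xyloglucan enzymes (29) held 0 of the 101. At 3 hr limma called 1, 2 and 3 of them higher and 1, 3 and 4 lower, against 3.91% and 4.31% of all probe sets. Their median log2 fold changes at 3 hr were 0.015, -0.034 and -0.115. List genes were also matched by RefSeq synonyms and the plastid chromosome, which was decided after the names were seen. Named were the 25 genes with the largest differences, members of the lists, the 3 nearest each limit, and up to 3 called genes per list. AT1G62290, AT2G30540, AT2G15042, AT1G68780, AT1G73655, AT1G63980, AT4G19820, AT2G42900 and the 5 other response regulators were named for their roles or their stability after their values were seen. The further called TBL and plastid-encoded genes were also named after their values were seen. Gene names come from the platform annotation and RefSeq, which matched 55 of the 56 genes. Alternatives were other offsets, scalings and limits, no intensity trend, no dim probe sets, the replicate number as a block, and each array left out.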

Additional observations from a re-analysis of the deposited data

Results flagged for a closer look

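Of the 14 genes named by the limit of up to 3 called genes per list, 4 differed between 6 hr and 3 hr in the limma fit. Of all probe sets 9.14% did. The log2 difference of 6 hr minus 3 hr was 0.858 for psaJ (adjusted p = 0.000162), which had -0.69 against 0 hr at 3 hr and 0.17 at 6 hr. It was 0.754 for TBL36 (adjusted p = 0.0114), with -1.53 at 3 hr and -0.78 at 6 hr, and 0.606 for AT3G27400 (adjusted p = 0.014), with -1.48 at 3 hr and -0.88 at 6 hr. For TBL26 it was -0.872 (adjusted p = 0.00138), with 1.31 at 3 hr and 0.44 at 6 hr. These 4 genes were chosen for a large change at 3 hr, so their values at 3 hr were part of the choice.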

How the results depend on the processing

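The number of probe sets lowered only at 3 hr was 64 with an offset of 64, 66 with a common median signal, 210 with a limit of -0.5 at 3 hr, 28 with -0.8 and 37 with later differences within 0.2. It was 104 with an offset of 1 and 78 after quantile normalization, and 92 to 161 when each array was left out in turn. Without the intensity trend limma called 937, 1216, 129 and 58 probe sets at 3, 6, 12 and 24 hr, against 1870, 2129, 364 and 218 with it, and 18 list genes against 38. Of those 18, 4 were plastid-encoded genes against 17, 3 were class III peroxidase genes against 7, and 0 were starch genes against 1, and psaC was not called. Without the dimmest 30% of probe sets it called 552 at 12 hr and 393 at 24 hr. Leaving out single arrays gave 866 to 2035, 989 to 2297, 102 to 414 and 70 to 192 calls at the same 4 times, and 17 to 38 list genes. A common median moved the share of lower calls at 3 hr to 36.9%, against 52.4%. The replicate block gave 1706, 1934, 318 and 157 calls at these times, and 37 list genes, so none of these counts moved by over 1.5 times. The difference of replicate 1 minus replicate 2 was taken within each group, over the probe sets with a mean of at least 6. These differences correlated between -0.11 and 0.14 over 10 pairs of groups, so the numbers were not taken as pairs. The median of the 5 cytokinin genes at 3 hr was -0.06, and 0.03 with an offset of 1. The causes of these changes were not tested.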
